A study of Mus musculus with 6 samples.

Results

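Complement and acute phase genes were examined in MLO-Y4 cells, a murine osteocyte-like cell line, after low-intensity pulsed ultrasound (LIPUS). The 9 genes were Cfb, C1ra, C1rb, C1s1, C1s2 and C3 of the complement system and Hp, Saa3 and Lcn2 of the acute phase response, out of 53797 genes in the deposited table. They were chosen by name with the values of this same comparison already known, so their differences are a description and carry no test.

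RNA was sequenced from 3 cultures stimulated by LIPUS for 20 min at 30 mW/cm2 and 1.5 MHz, and from 3 Control cultures that stood in the same plates over transducers that were switched off. All cultures were grown in serum-containing medium on collagen, and RNA was taken after a further 30 min in the incubator, to ask which transcripts of osteocytes respond to the stimulation. Each group has 1 deposited FPKM per gene (fragments scaled by transcript length and by library size), pooled over its 3 cultures, so no spread between cultures can be given, and the depth of each library, for which the methods give only a common round figure, cannot be read from the table. The study noted that a Control culture lay apart from the other Control cultures in its principal component analysis and named leaked ultrasound as a possible reason. Values without that culture could not be computed from pooled columns, and its part in the results was not tested.

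Complement is a cascade of plasma proteases. In the classical pathway, C1q binds immune complexes or surfaces, C1r then activates C1s, and C1s cleaves C4 and C2. In the alternative pathway, factor B joins activated C3, on which all pathways converge. Acute phase proteins are secreted in large amounts by the liver in inflammation, chiefly under interleukin-6 and interleukin-1, through C/EBP, STAT3 and NF-kB factors, and several are also made by mesenchymal cells at the site of injury.

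All 9 genes had an FPKM of at least 1 in at least 1 group, the minimum used here to call a gene expressed, and all 9 had a higher FPKM in the LIPUS group. The difference was at least 1.5-fold for 7 of the 9 genes, namely Saa3, Lcn2, C1rb, C1s1, C1s2, Cfb and Hp, and below it for C1ra and C3. None was lower. In RNA of whole cultures, more transcript per cell and more cells with the transcript cannot be told apart. Across all 11999 expressed genes, 8.98% were at least 1.5-fold higher with LIPUS and 9.26% at least 1.5-fold lower. Fold changes were computed as the ratio of FPKM + 0.1. The median log2 ratio of the 9 genes was 0.93, or 1.90-fold, beside a median of -0.0005 over all expressed genes, of which the central 95% lay between -1.36 and 1.33. Since the genes were picked with this contrast in view, nothing is read from the difference between these shares. The authors' program made a test for 8 of the 9 genes and none for C3. Of all expressed genes, 67.9% were tested.

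**Figure D1:**
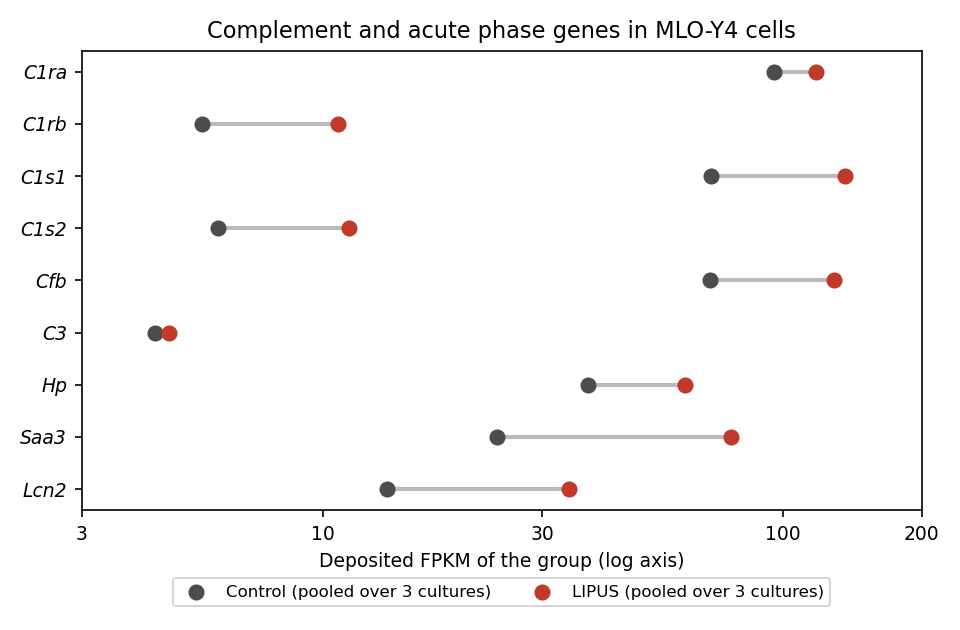
Deposited FPKM of each gene on a log axis in the Control group (grey) and the LIPUS group (red), each point pooled over 3 cultures, with no error bar because no value of a single culture was analysed. The red point lies to the right of the grey one for all 9 genes, and both nearly touch for C3 (4.33 and 4.63).

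In the Control group the FPKM, which is corrected for transcript length, was highest for C1ra (95.4), followed by C1s1 (69.7), Cfb (69.5), Hp (37.7), Saa3 (23.9), Lcn2 (13.8), C1s2 (5.92), C1rb (5.47) and C3 (4.33). In the LIPUS group the order of FPKM was C1s1 (136), Cfb (129), C1ra (118), Saa3 (77.1), Hp (61.1), Lcn2 (34.3), C1s2 (11.4), C1rb (10.8) and C3 (4.63). C1ra went from the first to the third place, and Saa3 passed Hp. With no spread between cultures, it is not known which neighbours in these orders differ. The summed FPKM of the 9 genes was 326 in Control and 582 in LIPUS, 1.79-fold higher. Relative to the summed FPKM of the whole table, which was 1.03-fold higher in LIPUS, this is 545 parts per 1000000 in Control and 943 in LIPUS.

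**Figure D2:**
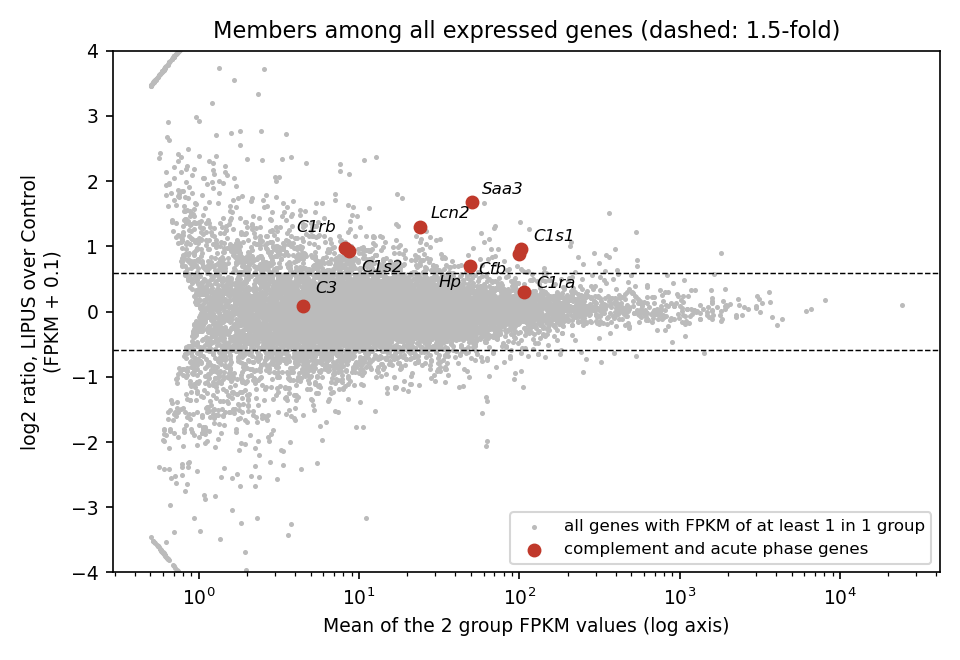
Log2 ratio of LIPUS over Control (FPKM + 0.1) against the mean of both group FPKM values on a log axis, for the 11999 expressed genes (grey) and the 9 genes (red), with dashed lines at 1.5-fold. Saa3, Lcn2, C1rb, C1s1, C1s2, Cfb and Hp lie above the upper line, C1ra and C3 lie between the lines, and 124 genes lie beyond the vertical axis.

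The 3 acute phase genes had the greatest relative difference of the roles, with log2 ratios from 0.70 to 1.68 and a summed FPKM of 75.4 in Control and 172 in LIPUS (2.29-fold). Saa3 encodes a serum amyloid A protein that in mice is made largely outside the liver, by macrophages, fat and mesenchymal cells, and binds lipid and retinol. It is annotated on the minus strand at chr7:46711998-46715700 (GRCm38) with 2606 exonic bases. Its FPKM was 23.9 in Control and 77.1 in LIPUS, 3.21-fold higher, a log2 ratio of 1.68. This was the highest ratio of the 9 genes, and 215 of the 11999 expressed genes (1.79%) had a higher one. Many of those were genes of low FPKM: among the 7032 genes with an FPKM of at least 10 in at least 1 group, of which 4.15% were at least 1.5-fold higher, 16 had a higher ratio than Saa3.

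The 250 bases before the RefSeq start of Saa3 are shown because they hold matches to an interferon-type and a C/EBP motif. They are at chr7:46715677-46715926, read on the minus strand of GRCm38.p6, with the ISRE match at -125 and the C/EBP match at -99 in capitals. The last 24 bases lie inside the first exon of the GENCODE annotation.
Saa3: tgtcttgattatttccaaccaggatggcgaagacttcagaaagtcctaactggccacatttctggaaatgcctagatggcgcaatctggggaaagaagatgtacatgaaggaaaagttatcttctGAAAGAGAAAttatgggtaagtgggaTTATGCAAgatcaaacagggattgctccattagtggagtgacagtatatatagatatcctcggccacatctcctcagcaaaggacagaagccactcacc

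Lcn2 encodes lipocalin 2, which withholds iron from bacteria by binding their siderophores and is also secreted by osteoblasts. The gene is on the minus strand at chr2:32384633-32388252 with 2623 exonic bases. Its FPKM was 13.8 in Control and 34.3 in LIPUS, a log2 ratio of 1.30 or 2.47-fold, with 313 expressed genes (2.61%) and 29 of those with an FPKM of at least 10 above it. Hp encodes haptoglobin, which binds free haemoglobin, and lies on the minus strand at chr8:109575128-109579172 with 1606 exonic bases. The FPKM of Hp was 37.7 in Control and 61.1 in LIPUS, a log2 ratio of 0.70 or 1.62-fold, with 868 expressed genes (7.23%) above it. The order of the relative differences was therefore Saa3, Lcn2, Hp, although Hp had the highest Control FPKM of the 3. In absolute terms the difference in FPKM was 53.1 for Saa3, 23.4 for Hp and 20.4 for Lcn2.

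The C1r and C1s genes lie together on mouse chromosome 6 as a duplicated pair: C1ra and C1rb encode the protease C1r, and C1s1 and C1s2 encode its substrate C1s. C1ra is on the plus strand at chr6:124512405-124523443, C1s1 on the minus strand at chr6:124530345-124542359, C1rb on the plus strand at chr6:124570294-124581171 and C1s2 on the minus strand at chr6:124624625-124636085. The abundant pair, C1ra and C1s1, did not differ alike. C1s1 had an FPKM of 69.7 in Control and 136 in LIPUS, a log2 ratio of 0.96 or 1.95-fold, and its difference of 66.4 FPKM was the greatest of the 9 genes. C1ra had an FPKM of 95.4 in Control and 118 in LIPUS, a log2 ratio of 0.30 or 1.23-fold, which 2296 expressed genes (19.1%) exceeded. The FPKM of C1ra was thus 1.37 times that of C1s1 in Control and 0.865 times in LIPUS.

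The less abundant pair had close values in both groups. C1rb had an FPKM of 5.47 in Control and 10.8 in LIPUS, a log2 ratio of 0.97 or 1.96-fold. C1s2 had an FPKM of 5.92 in Control and 11.4 in LIPUS, a log2 ratio of 0.93 or 1.90-fold. The FPKM of C1rb was 0.923 times that of C1s2 in Control and 0.951 times in LIPUS. C1rb made up 5.42% of the summed C1r FPKM in Control and 8.41% in LIPUS, while C1s2 made up 7.83% and 7.71% of the summed C1s FPKM. C1rl is a C1r-like protease gene whose end lies 1.8 kb before the start of C1ra. Its FPKM was 10.3 in Control and 8.99 in LIPUS (log2 ratio -0.20), lower but short of 1.5-fold.

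How reads are divided between the copies bears on these values. The longest transcripts of C1ra and C1rb are 98.0% identical over 2428 aligned bases, and 76.5% of the 100-base windows of C1rb lie within 2 mismatches of C1ra. For C1s1 and C1s2 the identity is 96.0% over 2642 bases, with 39.6% of the C1s2 windows this near to C1s1. The values of single copies are therefore uncertain, and the sums are less so. The summed C1r FPKM was 101 in Control and 128 in LIPUS (log2 ratio 0.35, 1.27-fold), and the summed C1s FPKM was 75.6 and 147 (log2 ratio 0.96, 1.95-fold). The ratio of the C1r sum to the C1s sum was 1.33 in Control and 0.871 in LIPUS, so the unlike differences of C1r and C1s were also present in the sums.

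C1s1 also shares sequence with an antisense gene. All 576 exonic bases of Gm16567, annotated on the opposite strand, lie within C1s1 exons and cover 18.4% of them. The FPKM of Gm16567 was 49.9 in Control and 90.6 in LIPUS (1.81-fold), which is 0.716 of the C1s1 FPKM in Control and 0.666 in LIPUS. The libraries were strand-specific, but whether strand was used for the FPKM is not given in the sources used here, so reads of the C1s1 and Gm16567 transcripts may not have been told apart.

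**Figure D3:**
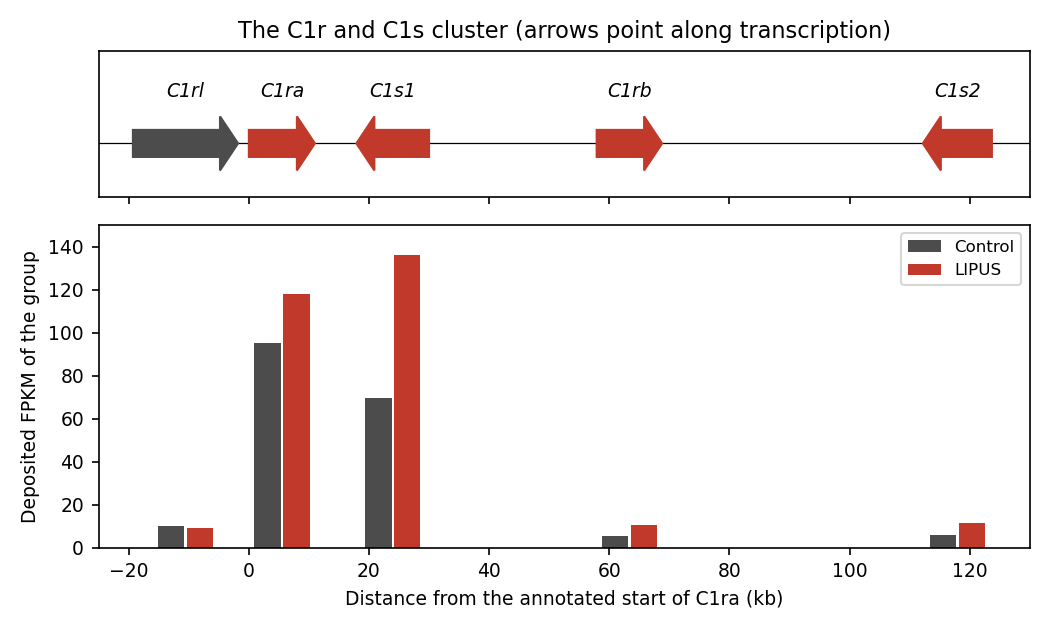
Upper panel, the genes of the C1r and C1s cluster drawn to scale as arrows along transcription, by distance from the annotated start of C1ra in kb. Lower panel, the deposited FPKM of each gene in Control (grey) and LIPUS (red): C1ra is the highest bar in Control (95.4) and C1s1 in LIPUS (136), and C1rl is the only gene of the 5 with a lower bar in LIPUS.

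Short windows around the C/EBP matches of C1ra, C1rb and C1s1 are shown because the first and second share a C/EBP match and a STAT-type (GAS) match at the same spacing. They are read on the strand of each gene from GRCm38.p6, at chr6:124512634-124512663 for C1ra, chr6:124570292-124570321 for C1rb and chr6:124542575-124542604 for C1s1. The first run of capitals in each marks the C/EBP match, and the second, where there is one, the GAS match.
C1ra: tgtTTATGCAAatgcttcaTTCCCTGAAac
C1rb: cctTTATGCAAatgcttcaTTCCCTGAAac
C1s1: gaaTTAGGCAAtctcaaaattccccattcc

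The promoter windows of C1ra and C1rb share a stretch in which 135 of 149 bases (90.6%) are identical, at a shift of 151 bases. Compared in the same way, without gaps and at the best shift, the 2 windows of C1s1 matched that of C1s2 at 38 of 101 bases (37.6%) and 49 of 139 bases (35.3%). Gaps and larger shifts were not tried, so a likeness of the C1s1 and C1s2 promoters at other offsets could not be seen. In C1ra and C1rb the same pair of matches stands at 16 and 32 from the RefSeq start in C1ra and at -135 and -119 in C1rb. The RefSeq start of C1ra lies 216 bases, and that of C1rb 136 bases, downstream of the GENCODE start, so positions relative to the start depend on the annotation.

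The alternative pathway genes Cfb and C3 differed from each other. Cfb encodes factor B, the protease of the alternative pathway convertases, and lies on the minus strand at chr17:34856374-34862518 with 2825 exonic bases. Its FPKM was 69.5 in Control and 129 in LIPUS, a log2 ratio of 0.89 or 1.85-fold, and 594 expressed genes (4.95%) had a higher ratio. An annotated readthrough gene on the same strand, Gm20547, shares 2246 exonic bases with Cfb, 79.5% of its exons, and was listed at 0 FPKM in Control and 0.362 in LIPUS, so little of the signal there was assigned to it. C3, on the minus strand at chr17:57203970-57228136 with 5143 exonic bases, had an FPKM of 4.33 in Control and 4.63 in LIPUS, a log2 ratio of 0.09 or 1.07-fold. That is a difference of 0.298 FPKM, and 4554 expressed genes (38.0%) had a higher ratio. C3 was also the least abundant of the 9 genes, and its Control FPKM was exceeded by 9007 of the 11999 expressed genes (75.1%).

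The other genes of these pathways were counted from lists drawn up with earlier results of these data known. Counts past 1.5-fold in these and the following lists stand beside 8.98% higher and 9.26% lower over all expressed genes. Of 52 further complement genes, 11 were expressed and 30 were listed at 0 in both groups. Of the 11, 3 were at least 1.5-fold higher with LIPUS, 1 was lower and 7 were neither, with a median log2 ratio of 0.27. C1qa, C1qb and C1qc, which encode the recognition unit that C1r and C1s join, were listed at 0 in both groups. Of C4 and C2, the substrates of C1s, C4b had an FPKM of 7.60 in Control and 14.6 in LIPUS (log2 ratio 0.94), close to the ratio of C1s1, while C2 stayed below 1 FPKM with 0.693 and 0.912. In the lectin pathway, 2 of 9 genes were expressed and neither passed 1.5-fold: Colec12, a scavenger receptor collectin, had FPKM values of 212 and 256, and Masp1, a protease related to C1r and C1s, 69.4 and 82.4. None of the 7 genes of the terminal components reached an FPKM of 1, and 5 of them were listed at 0 in both groups. A listed 0 is the value in the table. Of 79 ribosomal protein genes, all but Rpl39l and Rpl10l, copies used mainly in germ cells, were above 0 in at least 1 group.

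Of 17 complement regulators, 4 were expressed and 2 passed 1.5-fold, both higher with LIPUS. Vtn encodes vitronectin, an adhesive protein that also blocks the terminal complex, and had an FPKM of 7.59 in Control and 26.9 in LIPUS (log2 ratio 1.81, above that of Saa3). Cd59a, which also blocks the terminal complex at the cell surface, had 4.12 and 8.99 (log2 ratio 1.11). Cr1l, the mouse regulator of C3 on cell surfaces, had 25.8 and 31.9, and Clu, clusterin, had 11.3 and 13.8. Serping1, the inhibitor of C1r and C1s, stayed below 1 FPKM with 0.879 in Control and 0.585 in LIPUS. Among 10 complement receptors, 3 were expressed: Calr (1466 and 1538) and C1qbp (178 in both groups), both abundant proteins with other main roles, and Itgb2, a leukocyte integrin chain, which was lower with LIPUS (3.97 and 0.79).

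Of 26 further acute phase genes, 9 were expressed and 12 were listed at 0 in both groups. Of the 9, 5 were at least 1.5-fold higher, 2 were lower and 2 were neither. Over all expressed genes, 8.98% were higher and 9.26% lower, and of those with an FPKM of at least 10 in at least 1 group, 4.15% were higher. Of the 5, only Cp was tested by the authors' program, and of the lower genes Orm3 was not tested. Saa2 reached the minimum only in the LIPUS group, which fixed its count as higher. The serum amyloid A relatives of Saa3 were low: Saa1 had an FPKM of 1.12 in Control and 3.90 in LIPUS (log2 ratio 1.72), Saa2 was listed at 0 in Control and had 1.13 in LIPUS, and Saa4 was listed at 0 in both. No 100-base window of the longest Saa3 transcript lay within 2 mismatches of Saa1 or Saa2. Cp, which encodes the copper carrier ceruloplasmin, had 46.6 and 81.3 (log2 ratio 0.80). Serpina3n, a protease inhibitor, had 2.55 and 6.39 (1.29), and Lbp, the lipopolysaccharide-binding protein, 2.16 and 5.51 (1.31). The genes of orosomucoid, another acute phase protein, went the other way: Orm1 had 40.2 and 21.4 (log2 ratio -0.91), Orm3 1.10 and 0.358 (-1.39), and Orm2 11.1 and 8.90 (-0.32, short of 1.5-fold). Ptx3, a long pentraxin, had 67.1 and 72.3 (0.11). The acute phase genes were thus not uniformly higher.

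**Figure D4:**
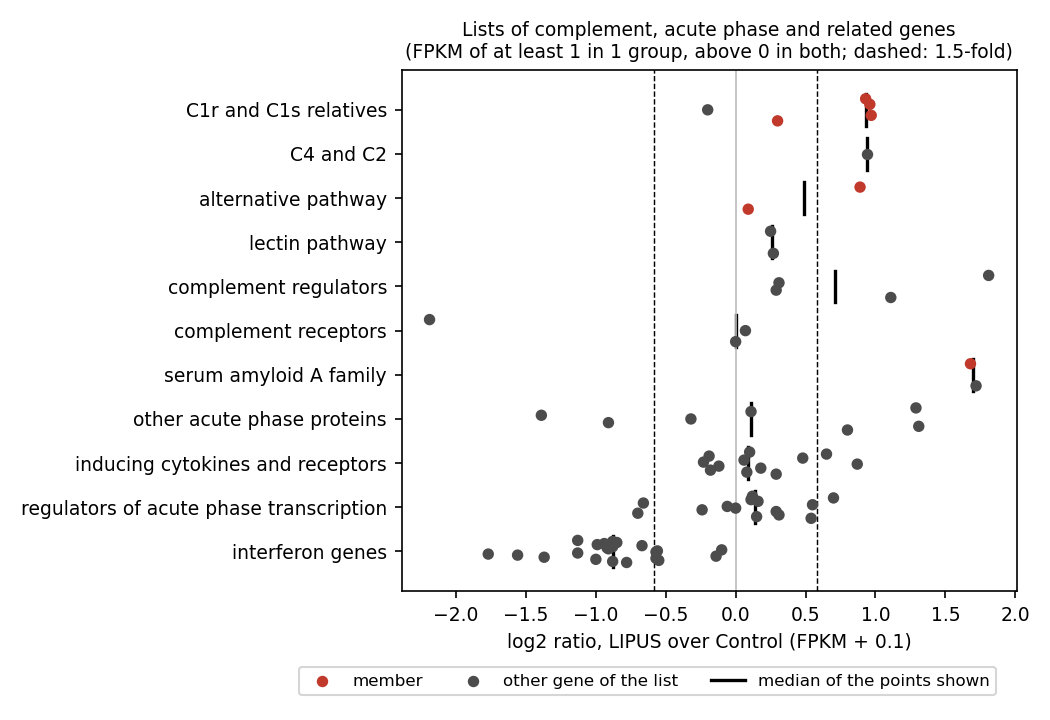
Log2 ratios of LIPUS over Control (FPKM + 0.1) for the expressed genes of 11 lists that were above 0 in both groups, with the 9 genes in red, other genes in grey, a bar at the median of the points shown and dashed lines at 1.5-fold. The C1r and C1s relatives and the other acute phase proteins hold points on both sides of 0, the complement regulators and serum amyloid A genes shown lie above 0, and all 22 interferon genes lie below 0, with a median of -0.88.

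Cytokines that induce acute phase genes were counted together with their receptors. Of 16 inducing cytokines and receptors, 12 were expressed, with a median log2 ratio of 0.09, and 2 were at least 1.5-fold higher, both of them cytokines. These were Il6, with an FPKM of 8.98 in Control and 16.5 in LIPUS (log2 ratio 0.87), and Tnf, with 3.12 and 4.93 (0.65). Lif, a cytokine of the interleukin-6 family, had 122 and 170 (0.48), Il11 of the same family had 457 and 557 (0.29), and the shared receptor chain Il6st 47.5 and 49.7 (0.06). Il1a, Il1b and Il17a were listed at 0 in both groups. Of 14 regulators of acute phase transcription, all expressed, 1 was higher, 2 were lower and the median was 0.13. Socs3, the feedback inhibitor of STAT3 signalling, had 73.2 and 119 (0.70). Nfkbiz, a nuclear cofactor of NF-kB needed for Lcn2 induction in other cells, was lower, with 27.3 and 17.3 (-0.66), and Cebpd was lower, with 2.32 and 1.39 (-0.70). Cebpb (72.0 and 89.2, log2 ratio 0.31), Stat3 (64.1 and 69.6, 0.12), Rela (34.9 and 39.1, 0.16) and Nfkbia (20.8 and 30.5, 0.55) did not pass 1.5-fold.

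Of 9 receptors and partners of the acute phase proteins, 4 were expressed and none passed 1.5-fold. Hmox1, which breaks down the haem that haptoglobin helps to clear, had an FPKM of 96.7 in Control and 144 in LIPUS (log2 ratio 0.58, 1.49-fold), and Scarb1, a lipoprotein receptor that also takes up serum amyloid A, had 59.4 and 56.2. Interferon genes, another innate immune group, went the opposite way. All 22 were expressed, 16 were at least 1.5-fold lower with LIPUS and none was higher. Over all expressed genes, 9.26% were lower and 8.98% higher. The summed FPKM of the 22 genes was 1793 in Control and 982 in LIPUS. Ifit3, for example, had 87.8 and 29.8 (log2 ratio -1.56), and Isg15 326 and 172 (-0.92). These genes, too, were listed with their values known.

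Genes next to the 9 were counted in the same way. Within 50 kb of their loci lay 27 other expressed genes, with a median log2 ratio of 0.10. Of the 27, 6 were at least 1.5-fold higher and none lower, beside 8.98% higher and 9.26% lower over all expressed genes. Some of the 6 overlap or are related to one of the 9 genes, and nothing is read from the difference. Saa2, at 0 in Control, reached the minimum only in the LIPUS group, which fixed its place among the 6. The 6 were the antisense gene Gm16567, Saa1, Saa2, Hps5 beside Saa3 (7.17 and 12.5, log2 ratio 0.79), 1110008P14Rik beside Lcn2 (23.3 and 35.9, 0.62) and Neu1 near Cfb (1.82 and 4.60, 1.29). Among the other neighbours, Nelfe (70.4 and 62.2, -0.18) and Ehmt2 (36.0 and 26.0, -0.47) near Cfb, Ist1 (34.0 and 40.4, 0.25) near Hp, and Trip10 (28.5 in both groups) near C3 did not pass 1.5-fold.

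RefSeq promoter windows of GRCm38.p6, from 250 bases before to 50 after the start, were found for 7 of the 9 genes. C1s1 had a pair of windows, and Cfb and Hp had none. A C/EBP motif (TTGCNNAA, read on both strands) was present in 6 of the 7 genes, all but C1s2, and in 12.2% of the 27025 genes with a window. The C/EBP matches of C3 and Lcn2 are shown, in capitals, beside those of C1ra, C1rb, C1s1 and Saa3 above. They lie at chr17:57228155-57228184 for C3, 45 bases before the start, and at chr2:32387929-32387958 for Lcn2, 216 bases before it, both read on the minus strand.
C3: atgTTGCGAAAttttgggcagtccctggtg
Lcn2: ctgTTGCTCAAccttgcacagttccgacct

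The GAS motif (TTCNNNGAA) was present in 2 of the 7 genes, C1ra and C1rb, and in 9.55% of all genes with a window. The ISRE motif (GAAA, any 2 bases, GAAA) was present in 1, Saa3, and in 3.99% of all genes, compared with 13 of 18 interferon genes (72.2%). For the TATA box only the exact letters TATAAA were searched. They were found in C3 alone, 14 bases after the start, and in 15.7% of all genes. Variants were not searched, such as the tatatata in the Saa3 stretch printed above, so the absence of TATAAA does not mean that a TATA box is absent. The NF-kB consensus was found in none of the 8 windows of the 7 genes and in 9.55% of all genes, which says only that these letters are not in these windows. No match overlapped one of another motif in the windows of the 7 genes. C1ra and C1rb are copies and do not count as independent, the RefSeq start of Lcn2 lies 513 bases inside the GENCODE gene, and a match is a description of sequence and not a binding site.

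**Figure D5:**
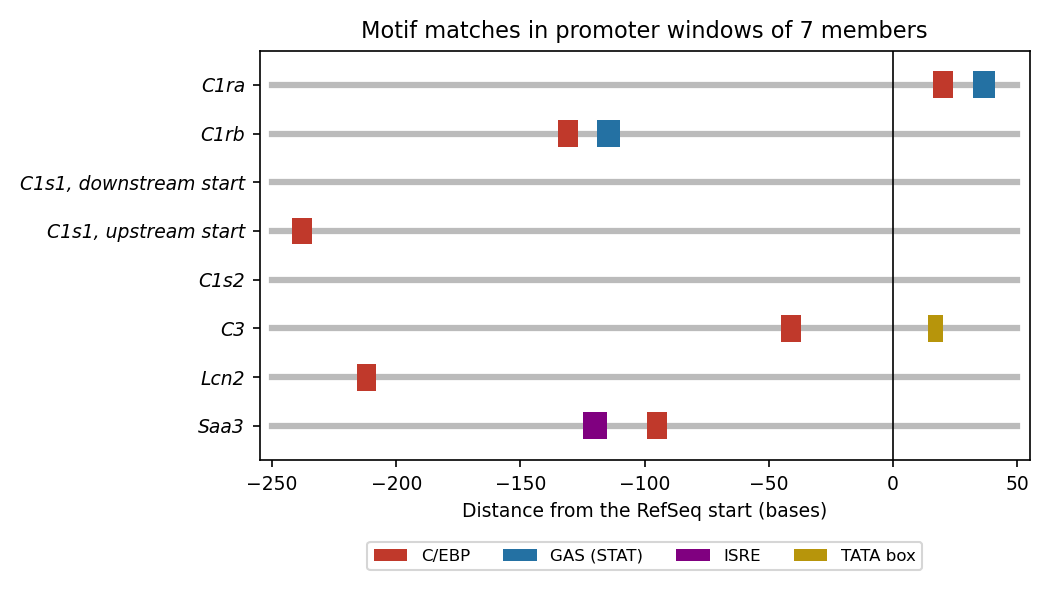
Motif matches in the RefSeq promoter windows of 7 genes, by distance in bases from the RefSeq start (vertical line), with matches drawn to length and coloured by motif and a row for each of both C1s1 starts. A C/EBP match stands in the windows of C1ra, C1rb, C3, Lcn2, Saa3 and the upstream start of C1s1, at positions from -242 to 16.

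Markers of other cells were read beside these results. All 7 hepatocyte markers, Alb and Apoa1 among them, were listed at 0 in both groups. Of 9 macrophage markers, 3 were expressed, and Ptprc, Adgre1, Tyrobp, Fcer1g and Mrc1 were listed at 0 in both groups. The summed FPKM of the macrophage list was 15.8 in Control and 12.8 in LIPUS, with Cd68 (5.32 and 1.72) and Lyz2 (2.01 and 0.189) lower and Cd14 (8.19 and 10.6) higher but short of 1.5-fold. Of 14 osteocyte and osteoblast markers, 9 were expressed. Among them were Pdpn (295 and 402), Dmp1 (3.04 and 7.65), Gja1 (176 and 170), Spp1 (4514 and 4158) and Col1a1 (891 and 731), while the mature osteocyte markers Sost, Mepe and Fgf23 were listed at 0 in both groups. Of the 9, Dmp1 was at least 1.5-fold higher with LIPUS. Bglap, listed at 0 in Control and 1.58 in LIPUS, was also counted as higher. It reached the minimum only in the LIPUS group, which fixed that count, so nothing is read from it. Alpl (293 and 190), Runx2 (24.4 and 14.8) and Sp7 (5.86 and 3.75) were at least 1.5-fold lower with LIPUS. The part of these marker differences in the complement and acute phase values was not tested.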

How the data were processed

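The members and the gene lists were chosen with earlier results of these data known. RNA of 3 LIPUS-treated and 3 Control cultures of MLO-Y4 cells was sequenced (stranded mRNA libraries, paired-end reads of 100 bases). Following the submitters' processing notes and the methods, reads were trimmed with Trimmomatic 0.36 and aligned to GRCm38 with TopHat2 2.1.0 and Bowtie2 2.2.6.0, and FPKM were computed with Cufflinks and Cuffdiff on Ensembl transcripts. The authors deposited a gene table with 1 pooled FPKM per group and a status, which is OK where Cuffdiff made a test. Its further columns hold the authors' own log2 fold change, test statistic, p-value, q-value and significance call and were not used here. Without values of single cultures no test was run and no SD is given.

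Log2 ratios were computed as LIPUS over Control of FPKM + 0.1 for genes reaching an FPKM of 1 in either group, and a difference of at least 1.5-fold was counted. The script that computes the ratios was tested on simulated data with known folds; the reported ratios themselves carry no test. Named were the 9 genes, list genes reaching an FPKM of 10 in either group or past 1.5-fold, and expressed genes within 50 kb; further genes of the lists (C2, Serping1, genes listed at 0) were named after their values were seen, and not every gene that the rule covers is printed. Positions are from GENCODE M21 (GRCm38), which held 99.66% of the gene identifiers. Promoter sequences are from RefSeq (GRCm38.p6). Python 3.11.15 with pandas 2.3.3, numpy 2.4.6, Biopython 1.88 and matplotlib 3.10.9 was used.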

Additional observations from a re-analysis of the deposited data

How the results depend on the processing

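All 9 genes kept a log2 ratio above 0 with pseudocounts of 1 and 0.01 FPKM, after centring on the median of all genes, after rescaling both groups to the same sum and, for the summed copies, with paralogs summed. A minimum FPKM of 10 leaves out C3 and does not alter the ratio of any other gene. The log2 ratio ranged over these from 1.64 to 1.69 for Saa3, 0.65 to 0.70 for Hp, 0.84 to 0.89 for Cfb, 0.92 to 0.97 for C1s1, 0.87 to 0.98 for C1rb, 0.84 to 0.94 for C1s2, 0.26 to 0.35 for C1ra and 0.05 to 0.10 for C3, and was at most 1.31 for Lcn2. The count of 7 genes at least 1.5-fold higher became 2 (Saa3 and Lcn2) at a fold of 2, where 4.01% of all expressed genes were higher, stayed 7 at the lower fold tried (a ratio of 5 to 4), where 18.0% were higher, and was 5 of 7 with paralogs summed. The median log2 ratio of the macrophage markers reversed from -1.57 to 0.37 with a minimum FPKM of 10, which leaves Cd14 alone. Other list medians moved as well. At this minimum the complement regulators went from 0.71 to 0.31 and the other acute phase proteins from 0.11 to -0.1. With a pseudocount of 1 FPKM the serum amyloid A family went from 1.72 to 1.21. The C1r and C1s relatives went from 0.93 to 0.35 with paralogs summed.

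No paired analysis was possible because the table holds 1 pooled value per group, and for the same reason leaving out each culture in turn was not run. The table holds no counts, so the precision of the low values (C3, C1rb, C1s2) is not stated.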

Other observations

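The C/EBP motif of the promoter windows was also counted outside the 9 genes. It was present in 71 of 630 other genes at least 1.5-fold higher with LIPUS (11.3%), in 82 of 689 genes at least 1.5-fold lower (11.9%) and in 712 of 7531 other expressed genes (9.45%). The ISRE motif was present in 27 of the 630 higher genes (4.29%), in 49 of the 689 lower genes (7.11%) and in 260 of the 7531 others (3.45%).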
